A study of Mus musculus with 12 samples.

Results

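The epithelial sodium channel and its steroid control were examined in 12 RNA-Seq libraries of mouse colonic tissue. The 7 genes were taken by name from the deposited count table of 54532 genes: the channel subunits Scnn1a, Scnn1b and Scnn1g, the receptor gene Nr3c2, the enzyme gene Hsd11b2, the kinase gene Sgk1 and the ubiquitin ligase gene Nedd4l. The mice were wild-type male C57BL/6J, 5 weeks old, in 4 groups with 3 libraries each. Control mice were not given DSS (dextran sodium sulfate), which damages the lining of the colon, and model mice had acute colitis from DSS. The Rhy group received DSS and rhynchophylline (Rhy), a plant alkaloid, and the labels list doses of 2, 4 and 8 mg/kg for the experiment without naming the dose of the sequenced mice. The DXM group received DSS and the synthetic glucocorticoid dexamethasone (DXM) at 4 mg/kg. The sources used here do not say how long before tissue collection the last dose was given, or that tissue was pooled. The libraries held 14346478 to 17749716 counts. Levels are given as CPM, the count scaled to a library size adjusted by TMM, or as FPKM, which also divides by gene length.

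The channel is built from alpha, beta and gamma subunits and carries sodium from the gut lumen into surface cells of the distal colon. Aldosterone, acting on the mineralocorticoid receptor encoded by Nr3c2, is known to raise its activity there, and in the rodent distal colon steroids are known to induce mainly the beta and gamma subunits, while the alpha subunit is made without them. Hsd11b2 inactivates glucocorticoids and so leaves the receptor to aldosterone, Nedd4l removes the channel from the membrane, and Sgk1, itself a steroid target, restrains Nedd4l.

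Several features of the libraries bear on what follows. Model 1 and model 2 were near-identical, with a dispersion of 0.00201 between them where each of the other 65 pairs had 0.0606 to 0.353. Over 15996 genes their squared differences averaged 2.90 times those of counting noise, and both were kept. Whether they come from separate animals, from 1 animal or from shared RNA is not known, and the standard errors and p-values against the model group count them as separate. Values with their counts summed are given for the 7 genes in the DXM group against the model group, and for genes of the 5 pathway lists with an unadjusted p under 0.05 there. Colonic epithelium was present in every library, with 8 of 8 epithelial markers detected and Krt8 the most abundant at a mean of 3450 FPKM. Genes of pancreatic acinar cells summed to at most 0.243 CPM and genes of kidney tubule, another tissue with the channel, to at most 0.599 CPM, with Cpa1 and Aqp2 at 0 in all 12 libraries. The libraries differed in posterior Hox genes, which mark position along the gut. Hoxb13, a gene of the most distal colon, had 155, 72.0 and 0.165 CPM in control 1, 2 and 3, 226, 205 and 1.49 CPM in model 1, 2 and 3, 0, 316 and 230 CPM in Rhy 1, 2 and 3, and 221, 195 and 236 CPM in DXM 1, 2 and 3. It was thus near 0 in 1 library of each group except the DXM group, where all 3 libraries were high. In bulk tissue, fewer cells of a type and less RNA per cell cannot be told apart.

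Scnn1g encodes the gamma subunit (ENSMUSG00000000216, chromosome 7 of GRCm38 from 121734479 to 121768475) and Scnn1b the beta subunit (ENSMUSG00000030873, chromosome 7 from 121865038 to 121918514). Both are read from the plus strand, and 96.6 kb separate them, with only Gm44740 annotated between, which had no count in any library. The 250 bases before each start are shown because these neighbours had the largest fold changes among the 7 genes in the DXM group against the model and control groups. The sequences are from RefSeq on GRCm38.p6, where 4 of the 7 genes matched by symbol, with 9 starts among them. They are printed on the plus strand at chr7:121734229-121734478 for Scnn1g, chr7:121864788-121865037 for Scnn1b and chr10:21993640-21993889 for the start of Sgk1 described further on. None of the 3 windows holds an annotated exon.
Scnn1g: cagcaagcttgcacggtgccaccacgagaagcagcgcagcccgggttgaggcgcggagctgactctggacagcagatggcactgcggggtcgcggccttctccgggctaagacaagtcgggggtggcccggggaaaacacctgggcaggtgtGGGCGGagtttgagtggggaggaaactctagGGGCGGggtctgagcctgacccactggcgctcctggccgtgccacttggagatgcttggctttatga
Scnn1b: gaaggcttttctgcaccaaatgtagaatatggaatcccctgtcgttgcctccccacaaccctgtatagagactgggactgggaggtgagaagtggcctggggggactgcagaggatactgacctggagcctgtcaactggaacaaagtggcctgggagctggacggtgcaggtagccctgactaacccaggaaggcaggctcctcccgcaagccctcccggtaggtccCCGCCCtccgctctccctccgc
Sgk1: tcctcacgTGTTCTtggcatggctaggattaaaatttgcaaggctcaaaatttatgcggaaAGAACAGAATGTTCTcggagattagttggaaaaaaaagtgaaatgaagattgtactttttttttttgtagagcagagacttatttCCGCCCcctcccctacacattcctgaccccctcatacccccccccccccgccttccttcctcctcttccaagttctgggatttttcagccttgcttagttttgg
The capitals mark letters of 4 motifs searched on both strands. The palindrome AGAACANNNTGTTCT, which glucocorticoid and mineralocorticoid receptors both recognise, is its own reverse complement and occurred in 3 of all 32851 windows of this length (0.00913%). A looser palindrome, GNACANNNTGTNC, which covers it, occurred in 0.387%, and the single arm AGAACA, part of the first, in 16.1%. The GC box GGGCGG occurred in 32.7%. The Scnn1g and Scnn1b windows had no match to the steroid motifs, and they had 2 and 1 GC boxes. Of the 6 Sgk1 windows, that shown held the exact palindrome, from 189 to 175 bases before the start, with a further arm at 242 to 237 bases and 1 GC box. This window lies within introns of longer Sgk1 transcripts. A match describes letters and was not tested for binding.

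The gamma subunit gene was scarce outside the DXM group. Scnn1g had 0.749, 0.209 and 0.274 CPM in control 1, 2 and 3 (10, 3 and 5 counts), and 1.38, 1.94 and 0.179 CPM in model 1, 2 and 3 (25, 32 and 3 counts). In Rhy 1, 2 and 3 it had 0, 1.96 and 5.60 CPM (0, 30 and 99 counts), where a count of 0 allows up to 0.257 CPM from counting error alone. In DXM 1, 2 and 3 it had 40.8, 4.19 and 10.7 CPM (595, 87 and 211 counts). Every DXM library lay above every control and model library, and Rhy 3 lay above DXM 2, so that the DXM and Rhy groups overlapped. DXM 1 stood apart within its group and gave 66.6% of the group's counts.

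The Scnn1g level in the DXM group was 15.8-fold that of the model group (log2 fold change 3.98, standard error 1.22), 45.3-fold that of the control group (5.50, standard error 1.36) and 7.18-fold that of the Rhy group (2.84, standard error 1.15). In edgeR's quasi-likelihood test over 16904 genes the adjusted p-values were 0.622, 0.128 and 0.830, none under 0.05, and the unadjusted p-values were 0.00698, 0.00169 and 0.0292. By exact permutation, two-sided, p was 0.1 against the model group and against the control group, the smallest that 3 libraries against 3 can give, and 0.2 against the Rhy group. Without DXM 1 the log2 fold changes of Scnn1g were 2.66, 4.18 and 1.54, each more than 1.5 times smaller as a fold. Against the control group the adjusted p fell under 0.05 with DESeq2 (0.00693), with all genes that had any count (0.0499) and with libraries scaled to the epithelial markers (0.0311), in a range of 0.00693 to 0.502 over 24 alternatives. Those settings called 1173, 13 and 2195 genes in that comparison. With model 1 and model 2 summed, the log2 fold change against the model group was 4.25. Without Rhy 3 the value against the Rhy group was 4.17, and without control 1 that against the control group was 6.20. Model over control gave 1.52 for Scnn1g (standard error 1.31, edgeR adjusted p 0.737), 2.22 without control 1, and Rhy over model gave 1.13 (standard error 1.15, edgeR adjusted p 1), which turned to -0.19 without Rhy 3.

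**Figure D1:**
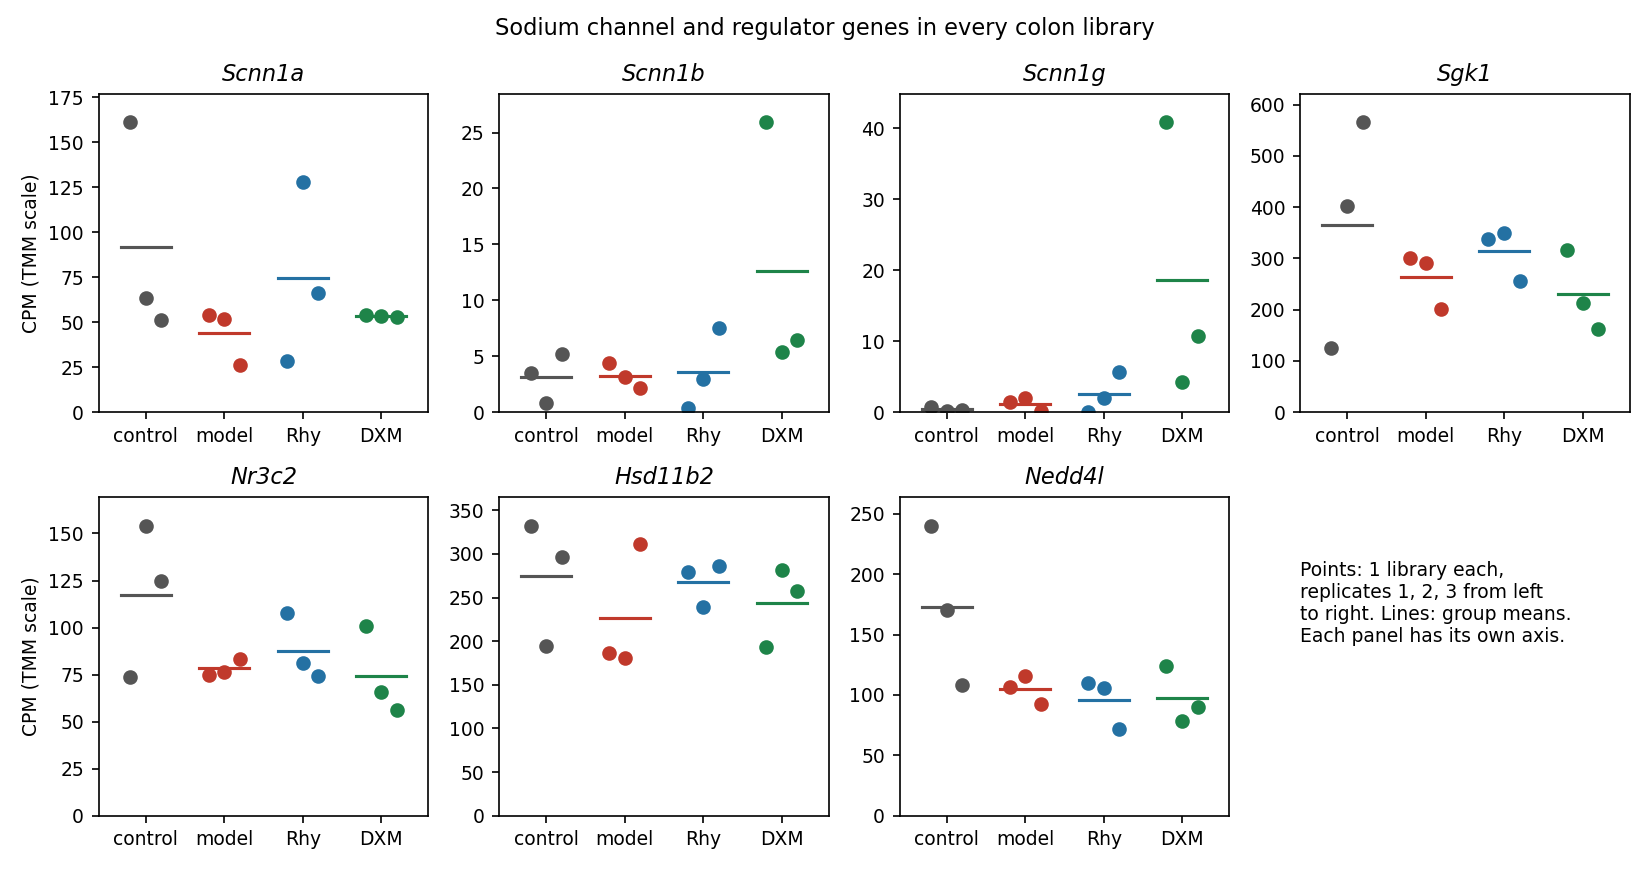
CPM on the TMM scale of the 7 genes (vertical axes, 1 per gene) in the 12 libraries by group; points are libraries and lines are group means, n = 3. Scnn1b and Scnn1g are highest in DXM 1, at 25.9 and 40.8 CPM, and the other 5 genes overlap between the DXM group and each other group.

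The beta subunit gene varied less. Scnn1b had 3.52, 0.834 and 5.21 CPM in control 1, 2 and 3, and 4.36, 3.16 and 2.20 CPM in model 1, 2 and 3. It had 0.342, 3.0 and 7.53 CPM in Rhy 1, 2 and 3, and 25.9, 5.35 and 6.48 CPM in DXM 1, 2 and 3. On the CPM scale the DXM libraries lay above all control and model libraries, the lowest by a narrow margin over control 3. By FPKM DXM 2, at 1.99, lay just below control 3, at 2.00, so that these groups overlapped. Rhy 3 lay within the DXM range. DXM 1 gave 61.3% of the group's 617 counts. The log2 fold change was 1.95 against the model group (standard error 0.91, 95% interval -0.03 to 3.93), 1.97 against the control group (standard error 0.91) and 1.77 against the Rhy group (standard error 0.90). The edgeR adjusted p-values were 0.650, 0.269 and 0.830. Without DXM 1 the log2 fold changes were 0.87, 0.88 and 0.69, without Rhy 3 the last was 2.87, and with model 1 and model 2 summed the value against the model group was 2.05. Model over control gave 0.02 for Scnn1b (standard error 0.90), which was -0.43 without control 2 and 0.55 without control 3. Cog7 overlaps Scnn1b on the opposite strand, but the genes share 0 exon bases, and Cog7 was between 14.4 and 28.8 CPM in the 12 libraries. The sources used here do not state whether reads were counted by strand.

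Scnn1a, the alpha subunit gene (ENSMUSG00000030340, chromosome 6 from 125320659 to 125344943), did not follow its partners. It had 161, 63.3 and 51.2 CPM in control 1, 2 and 3, and 53.9, 51.6 and 26.0 CPM in model 1, 2 and 3. In Rhy 1, 2 and 3 it had 28.7, 128 and 66.5 CPM, and in DXM 1, 2 and 3 54.2, 53.6 and 52.9 CPM. The DXM libraries were alike to within 1.3 CPM and lay inside the range of the control and Rhy groups. Against the model group it gave a log2 fold change of 0.29 (standard error 0.52, and 0.44 with model 1 and model 2 summed), against the control group -0.78 (standard error 0.52) and against the Rhy group -0.47 (standard error 0.52), with edgeR adjusted p-values of 0.907, 0.433 and 0.858. The value against the control group was -0.10 without control 1. The value against the Rhy group turned to 0.17 without Rhy 2 and to 0.03 with libraries scaled to the epithelial markers. The largest contrast was the model group against the control group, at -1.07 (standard error 0.52, edgeR adjusted p 0.545), which was -0.39 without control 1 and -1.22 with model 1 and model 2 summed.

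Per gene length, Scnn1a was the highest of the 3 subunit genes in every library except DXM 1. On the FPKM scale Scnn1b was 3.43, 2.07 and 16.0% of Scnn1a in control 1, 2 and 3, 12.7, 9.60 and 13.3% in model 1, 2 and 3, 1.87, 3.68 and 17.7% in Rhy 1, 2 and 3, and 75.0, 15.7 and 19.2% in DXM 1, 2 and 3. Scnn1g was 0.643, 0.455 and 0.741% of Scnn1a in control 1, 2 and 3, 3.53, 5.2 and 0.951% in model 1, 2 and 3, 0, 2.12 and 11.6% in Rhy 1, 2 and 3, and 104, 10.8 and 27.9% in DXM 1, 2 and 3. DXM 1 was the only library in which the gamma level passed the alpha level, at 13.4 FPKM against 12.9. Set against Scnn1b, Scnn1g was below it in all 9 libraries outside the DXM group, at 0 to 65.5%, and in DXM 2, at 69.0%, and above it in DXM 1 and DXM 3, at 139 and 145%. These ratios carry no scaling between libraries, and Scnn1a itself was within 12.4 to 12.9 FPKM in the DXM group.

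**Figure D2:**
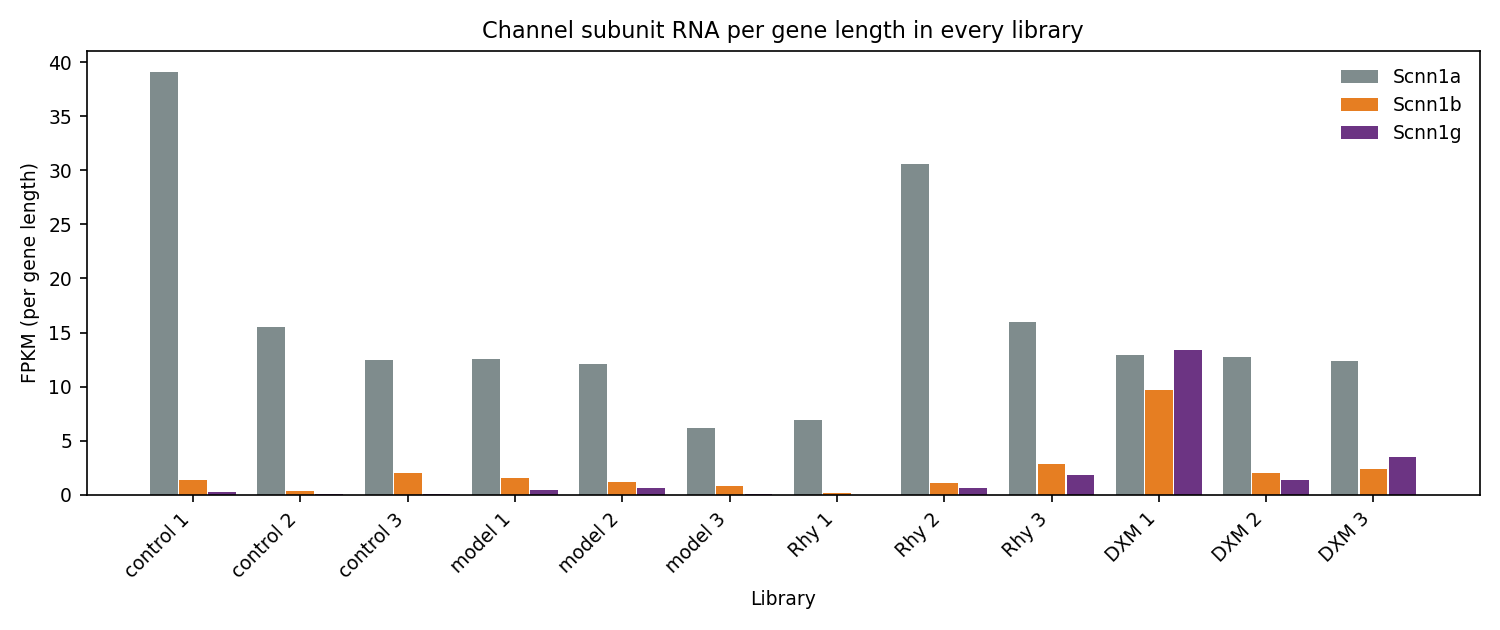
FPKM of Scnn1a, Scnn1b and Scnn1g (vertical axis) in each of the 12 libraries (horizontal axis), 1 bar per gene and library. Scnn1a is the tallest bar in 11 libraries, and Scnn1g passes it in DXM 1 at 13.4 FPKM.

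Posterior Hox genes were compared with the subunits library by library. The 6 Hox genes, led by Hoxb13 at a mean of 69.1 FPKM, summed to 220, 153 and 32.8 CPM in control 1, 2 and 3, 381, 365 and 41.5 CPM in model 1, 2 and 3, 48.0, 445 and 406 CPM in Rhy 1, 2 and 3, and 384, 280 and 486 CPM in DXM 1, 2 and 3. Of these, 6 of 6 had a log2 fold change above 0 in the DXM group against the model group and against the control group, none with an unadjusted p under 0.05 in edgeR. The 3 libraries with Hoxb13 near 0 had 5, 3 and 0 counts of Scnn1g in control 3, model 3 and Rhy 1, and 5.21, 2.20 and 0.342 CPM of Scnn1b, the first the highest of the control group. Among the other 9, Scnn1g was at 0.749 and 0.209 CPM in control 1 and 2, 1.38 and 1.94 in model 1 and 2, 1.96 and 5.60 in Rhy 2 and 3, and 40.8, 4.19 and 10.7 in DXM 1, 2 and 3, so that Rhy 3 lay above DXM 2. The 9 libraries with Hoxb13 at 5 CPM or more, a choice made after seeing the data, leave the model group with only model 1 and model 2, which may be 1 sample. Over these 9 the log2 fold change of Scnn1g was 3.49 against the model group (edgeR adjusted p 0.464), 5.24 against the control group (0.0741) and 2.27 against the Rhy group (0.997). With log2 CPM of Hoxb13 as a covariate in the fit of all 12 libraries, the values were 3.55, 4.31 and 2.53. For Scnn1b the same 9 libraries gave 1.75, 2.51 and 1.23, and the covariate 1.78, 1.46 and 1.70. Among the 9 libraries the Hox sums still differed, with 220 and 153 CPM in control 1 and 2 against 384, 280 and 486 CPM in DXM 1, 2 and 3. A part of gut position in the levels was not tested by these fits.

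**Figure D3:**
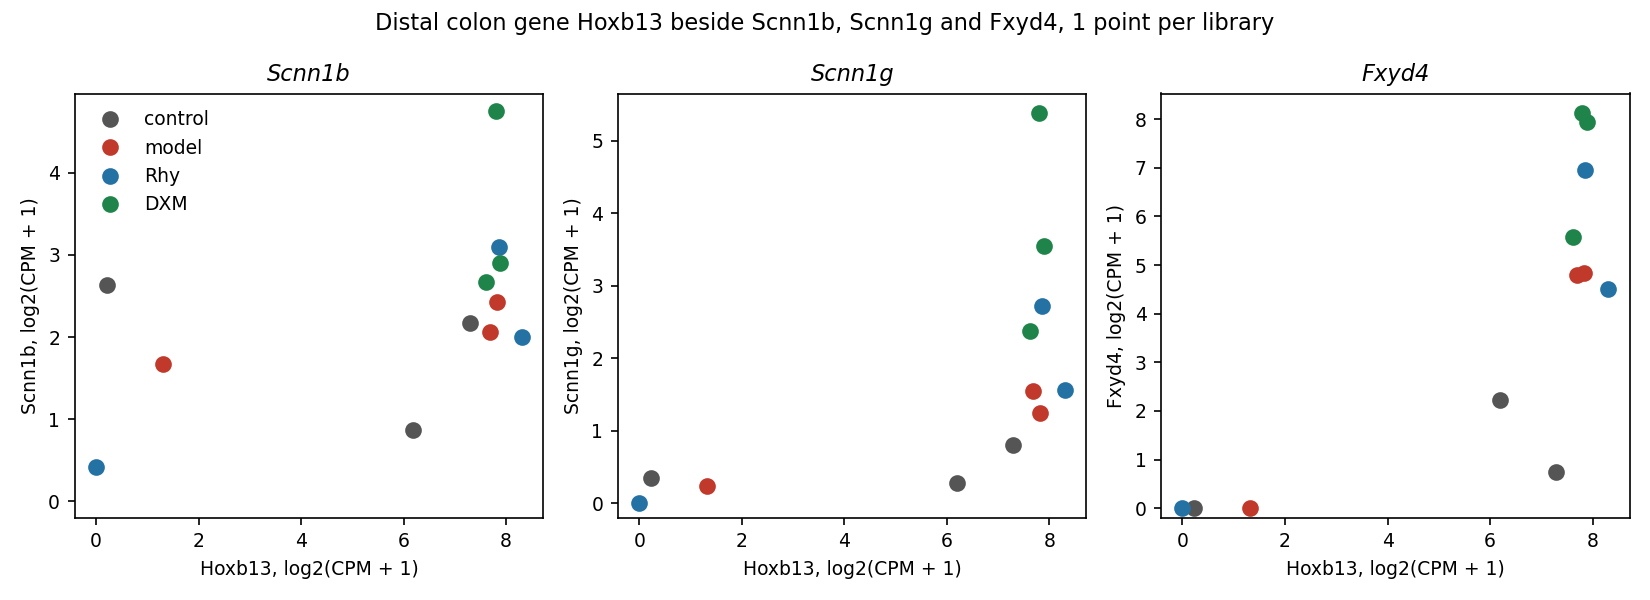
Log2(CPM + 1) of Scnn1b, Scnn1g and Fxyd4 (vertical axes) against log2(CPM + 1) of Hoxb13 (horizontal axis), 1 point per library, coloured by group. Control 3, model 3 and Rhy 1 sit at the left with Hoxb13 under 5 CPM, and among the libraries at the right the highest Scnn1g point is DXM 1.

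Other tissue markers also differed between groups. The 8 epithelial markers, led by Krt8, summed to 21820, 17900 and 15470 CPM in control 1, 2 and 3, 14540, 14230 and 16700 CPM in model 1, 2 and 3, 17130, 20000 and 20820 CPM in Rhy 1, 2 and 3, and 15510, 13120 and 13370 CPM in DXM 1, 2 and 3. The 6 markers of surface colonocytes, the cells that carry the channel, were led by Car1 at a mean of 5380 FPKM. They summed to 14940, 25900 and 11430 CPM in control libraries, 9202, 9388 and 14480 CPM in model libraries, 18300, 9623 and 10960 CPM in Rhy libraries, and 16530, 4721 and 3463 CPM in the DXM group, so that DXM 1 had more than 3 times the sum of DXM 2. The 6 smooth muscle markers, led by Actg2 at a mean of 694 FPKM, summed to 6059, 3447 and 3127 CPM in control libraries, 4583, 4534 and 3519 CPM in model libraries, 5443, 6319 and 6036 CPM in Rhy libraries, and 7360, 4877 and 8811 CPM in the DXM group. In the DXM group against the control group, 8 of 8 epithelial and 6 of 6 surface markers had a log2 fold change under 0, 5 and 4 of them with an unadjusted p under 0.05 in edgeR, and 6 of 6 smooth muscle markers were above 0, 3 of them with an unadjusted p under 0.05. Of all genes 18.9% passed in that comparison, 8.68% higher and 10.2% lower. Against the model group 7 of 8 epithelial markers were under 0, 1 of them with an unadjusted p under 0.05. There 6 of 6 smooth muscle markers were above 0, Acta2 (0.92, standard error 0.31) and Myh11 (0.69, standard error 0.24) with an unadjusted p under 0.05, and 3 of them without overlap. Of the 6 surface markers 4 were under 0 and 1, above 0, had an unadjusted p under 0.05. Against the model group 7.69% of all genes passed, 4.89% higher and 2.80% lower, and 22.6% were without overlap. Fat markers, led by Cidec, summed to 17.0 to 148 CPM. Immune markers, led by Lyz2, summed to 273, 254 and 545 CPM in DXM 1, 2 and 3 and 48.6 to 327 CPM elsewhere, and endothelial markers, led by Pecam1, to 71.2, 42.1 and 70.6 CPM in DXM 1, 2 and 3 and 21.8 to 66.8 CPM elsewhere. The 4 immune markers went both ways: in the DXM group Lyz2 and Ptprc gave 1.09 and 0.42 against the control group and 0.98 and 0.30 against the model group, Cd3e gave -0.99 and -0.59, and Cd79a 0.20 and -0.05. Every DXM library lay above every control and model library for Lyz2 and below every control library for Cd3e. Mitochondrial genes took 25.7, 7.88 and 7.48% of the counts in DXM 1, 2 and 3 and 6.33 to 23.8% in the other libraries. The part of any of these in the Scnn1b and Scnn1g levels was not tested. With the scaling to the epithelial markers, the log2 fold change of Scnn1g in the DXM group was 4.11 against the model group and 5.99 against the control group. That scaling moved the median log2 fold change of all genes by 0.31 in the DXM group against the model group, 0.58 against the control group and 0.51 against the Rhy group, by -0.20 for Rhy over model, and by 0.26 for model over control.

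The genes that control the channel had smaller fold changes than Scnn1g in the DXM group against each other group. Nr3c2, which encodes the mineralocorticoid receptor (ENSMUSG00000031618, chromosome 8 from 76899442 to 77245012), had 73.5, 154 and 125 CPM in control 1, 2 and 3, 74.8, 76.6 and 83.3 CPM in model 1, 2 and 3, 108, 81.0 and 74.1 CPM in Rhy 1, 2 and 3, and 101, 65.9 and 56.2 CPM in DXM 1, 2 and 3. The control group had the widest range, and control 1 lay below all model libraries. The log2 fold change in the DXM group was -0.08 against the model group (standard error 0.28, and -0.10 with model 1 and model 2 summed), a sign that turned to 0.19 with the epithelial scaling. Against the control group it was -0.66 (standard error 0.29, unadjusted p 0.0394 and adjusted p 0.244 in edgeR). The unadjusted p was under 0.05 in 11 of the 24 alternatives, and the value was -0.18 with the epithelial scaling and -0.42 without control 2. Gm10649, an antisense RNA at its start, shares 3.82% of the exon bases and had 0.772 to 1.89 CPM.

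Hsd11b2, the enzyme that inactivates glucocorticoids (ENSMUSG00000031891, chromosome 8 from 105518755 to 105523988), was the most abundant of the 7 genes per length, at a mean of 136 FPKM and a range of 95.5 to 181. It had 332, 194 and 297 CPM in control libraries, 186, 181 and 311 CPM in model libraries, 279, 239 and 286 CPM in Rhy libraries, and 193, 282 and 257 CPM in the DXM group. All groups overlapped. The log2 fold change in the DXM group was 0.11 against the model group (standard error 0.27), which was -0.02 with model 1 and model 2 summed, and -0.17 against the control group (standard error 0.27), which was 0.44 with the epithelial scaling.

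Sgk1, the steroid-induced kinase (ENSMUSG00000019970, chromosome 10 from 21882184 to 21999903), had 126, 403 and 565 CPM in control 1, 2 and 3, 300, 291 and 202 CPM in model 1, 2 and 3, 338, 349 and 255 CPM in Rhy 1, 2 and 3, and 317, 212 and 162 CPM in DXM 1, 2 and 3. The control libraries spanned all the others. Its log2 fold change in the DXM group was -0.20 against the model group (standard error 0.44, edgeR adjusted p 0.931), -0.11 with model 1 and model 2 summed and 0.04 with the epithelial scaling, and -0.66 against the control group (standard error 0.44, edgeR adjusted p 0.428), which was -0.22 without control 3.

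Nedd4l, the ubiquitin ligase of the channel (ENSMUSG00000024589, chromosome 18), had 240, 170 and 108 CPM in control 1, 2 and 3, 107, 116 and 92.1 CPM in model 1, 2 and 3, 110, 106 and 71.5 CPM in Rhy 1, 2 and 3, and 124, 78.2 and 90.2 CPM in DXM 1, 2 and 3. Control 1 and control 2 lay above every other library, and control 3 lay within the range of the other groups. The log2 fold change was -0.82 in the DXM group against the control group (standard error 0.29, unadjusted p 0.0155 and adjusted p 0.178 in edgeR) and -0.72 for model over control (standard error 0.29, unadjusted p 0.0301 and adjusted p 0.493). Both comparisons use the same control libraries. Without control 1 the values were -0.51 and -0.40, and with the epithelial scaling -0.23 and -0.40. The unadjusted p was under 0.05 in 21 of the 24 alternatives for DXM over control and in 18 for model over control. The value for model over control was -0.76 with model 1 and model 2 summed, where its unadjusted p in edgeR was 0.0515. In the DXM group against the model group it was -0.11 (standard error 0.29, and -0.06 with model 1 and model 2 summed), a sign that turned to 0.17 with the epithelial scaling. For model over control, 8 of 8 epithelial and 6 of 6 surface markers were also below 0. Of these, 1 epithelial and 4 surface markers had an unadjusted p under 0.05 in edgeR, where 4.51% of all genes were lower.

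Ranked by mean FPKM over the 12 libraries, Hsd11b2 stood first, followed by Sgk1 at 59.2, Scnn1a at 15.8, Nr3c2 at 13.7, Nedd4l at 8.11, Scnn1b at 2.12 and Scnn1g at 1.86. The ranges of neighbours in this order overlapped in each case: 25.7 to 116 FPKM for Sgk1, 6.15 to 39.1 for Scnn1a, 8.43 to 24.1 for Nr3c2, 4.94 to 16.8 for Nedd4l, 0.129 to 9.70 for Scnn1b and 0 to 13.4 for Scnn1g. The order differed by group. In the DXM group Scnn1g averaged 6.09 FPKM against 4.69 for Scnn1b, and in the model group Nr3c2 averaged 11.7 against 10.3 for Scnn1a. The highest library was 1.90 times the lowest for Hsd11b2, 2.86 times for Nr3c2, 3.39 times for Nedd4l, 4.52 times for Sgk1, 6.36 times for Scnn1a and 75.3 times for Scnn1b.

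**Figure D4:**
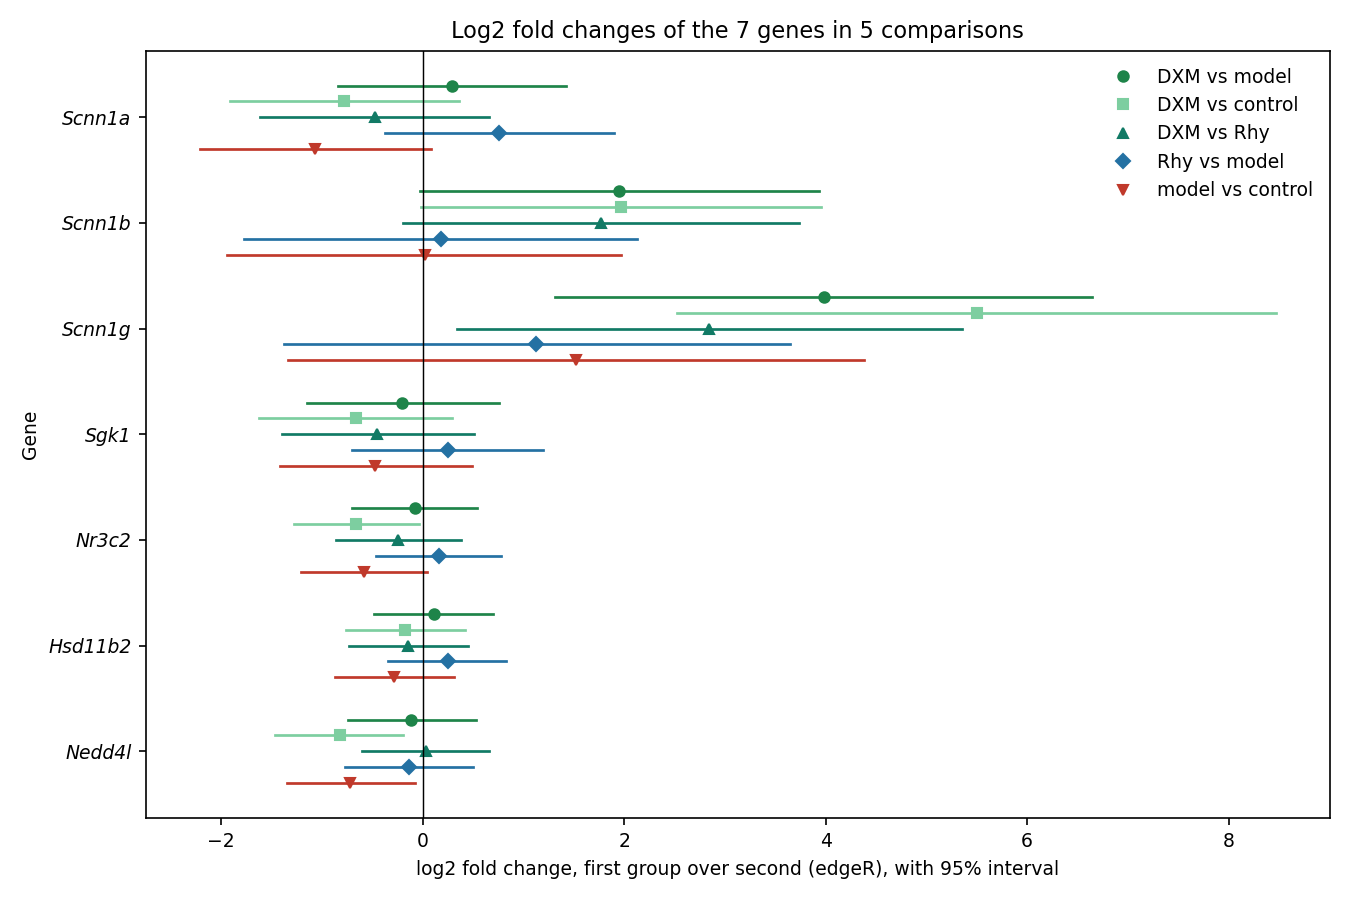
Log2 fold changes of the 7 genes (rows) in 5 comparisons from the edgeR fit of 12 libraries (horizontal axis), with 95% intervals as lines and the first-named group over the second. The Scnn1g intervals for the DXM group lie above 0 in all 3 comparisons, from 1.31 against the model group, 2.53 against the control group and 0.34 against the Rhy group, and no value had an adjusted p under 0.05.

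All 7 genes passed the filter on low counts. In edgeR's test 0 of them, and 0 (0%) of the 16904 genes tested, had an adjusted p under 0.05 in each of the 5 comparisons and in the test of any difference among the 4 groups. DESeq2 called 54 genes in the DXM group against the model group, 1173 against the control group and 9 against the Rhy group, 7 for Rhy over model and 65 for model over control. In the DXM group against the model group, 1 of 7 had an unadjusted p under 0.05, Scnn1g, which was higher, where 7.69% of all genes did, 4.89% higher and 2.80% lower (1300 genes, and 736 with model 1 and model 2 summed). The Scnn1g call held in 23 of the 24 alternatives, and in 11 of the 12 fits that left out 1 library. The groups did not overlap for 2 of 7, Scnn1b and Scnn1g, against 22.6% of all genes. Against the control group Scnn1g was higher and Nr3c2 and Nedd4l were lower at an unadjusted p under 0.05, a rule that called 18.9% of all genes, 8.68% higher and 10.2% lower. In that comparison the groups did not overlap on the CPM scale for Scnn1b and Scnn1g, against 18.7% of all genes, but by FPKM Scnn1b overlapped. Against the Rhy group 1 of 7, Scnn1g, passed, against 5.02% of all genes, a call lost in 4 of 24 alternatives, among them without DXM 1 and without Rhy 2, and 0 were without overlap, against 12.2%. For Rhy over model 0 of 7 passed, against 3.72%, and 0 were without overlap, against 11.5%. For model over control 1 of 7 passed, Nedd4l, which was lower, against 9.62%, with 5.11% higher and 4.51% lower, and 0 were without overlap, against 17.0%. In the test of any difference among groups, Scnn1g (unadjusted p 0.00271) and Nedd4l (0.0309) passed without adjustment, as 11.5% of all genes did. The median log2 fold change of the 7 was 0.11 in the DXM group against the model group and -0.66 against the control group, beside -0.01 and 0.06 for all genes.

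Other steroid targets were listed beside the channel. Of 8 listed genes, 1 was higher in the DXM group than in the model group at an unadjusted p under 0.05 in edgeR and 0 were lower, where 7.69% of all genes passed. Against the control group 1 was higher and 2 were lower, where 18.9% of all genes passed. Fxyd4, a corticosteroid-induced regulator of the sodium pump, had 0.674, 3.69 and 0 CPM in control 1, 2 and 3, 27.5, 26.6 and 0 CPM in model 1, 2 and 3, 0, 21.9 and 123 CPM in Rhy 1, 2 and 3, and 278, 46.6 and 245 CPM in DXM 1, 2 and 3. It was at 0 in the same 3 libraries where Hoxb13 was near 0. Its log2 fold change against the control group was 7.06 (standard error 2.14, unadjusted p 0.00653 and adjusted p 0.140 in edgeR), and 9.27 without control 2 or 6.40 without control 3. Over the 24 alternatives the Fxyd4 value ranged from 4.93 to 9.27. With the epithelial scaling its adjusted p against the control group was 0.0428, the lowest of 24 alternatives that reached up to 0.502. That scaling called 2195 genes in all in this comparison. Every DXM library lay above every control and model library. Against the model group the log2 fold change of Fxyd4 was 3.40 (standard error 1.75, unadjusted p 0.0769 in edgeR). Model over control gave 3.66 (standard error 1.90). Against the Rhy group, where Rhy 3 lay above DXM 2, it was 1.97 (standard error 1.65). Dusp1, a phosphatase induced by glucocorticoids, had 71.6, 52.8 and 63.6 CPM in control libraries, 31.3, 31.7 and 29.5 CPM in model libraries and 70.6, 30.1 and 132 CPM in the DXM group. Its log2 fold change against the model group was 1.33 (standard error 0.41), 0.71 without DXM 3 and 1.34 with model 1 and model 2 summed. It was 0.30 (standard error 0.40) against the control group, and model over control gave -1.02 (standard error 0.41). Tsc22d3, the glucocorticoid-induced leucine zipper gene, was at 15.9, 16.5 and 14.6 FPKM in the DXM group and 27.1, 24.1 and 21.2 FPKM in the control group (log2 fold change -0.58, standard error 0.22). Per1, a clock gene with a glucocorticoid response, gave -0.49 (standard error 0.22) in the same comparison and 0.39 (standard error 0.22) against the model group, where every DXM library lay above every model library. In that comparison Per1, Fxyd4 and Ndrg2 lay wholly above and Tsc22d3 (-0.33) and Klf9 (-0.40) wholly below, 5 of 8 beside 22.6% of all genes. Model over control gave -0.88 for Per1 (standard error 0.22). Against the control group the signs of Tsc22d3 and Per1 were not kept with the epithelial scaling, at 0 and 0.12. The unadjusted p there was under 0.05 in 20 of the 24 alternatives for Tsc22d3 and in 11 for Per1. Ndrg2, an aldosterone-induced gene, had the highest mean of the list over the 12 libraries, 33.9 FPKM, with a range of 30.2 to 41.0. In the DXM group Fxyd4 was higher, at a mean of 95 FPKM against 35.9 for Ndrg2. In the Rhy group Fxyd4 was lower, at 24.5 against 37.1.

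Of the 8 genes for receptors and steroid handling that were tested, from 10, 1 was higher in the DXM group than in the model group without adjustment, where 7.69% of all genes passed, 4.89% higher. This was Hsd11b1, which regenerates glucocorticoids, at 1.49, 2.18 and 4.88 CPM in model libraries and 7.95, 4.63 and 11 CPM in the DXM group (log2 fold change 1.46, standard error 0.55, edgeR adjusted p 0.637, 2.11 without model 3 and 1.24 with model 1 and model 2 summed), and at 3.07, 2.78 and 8.73 CPM in control libraries, against which it gave 0.69 (standard error 0.54). Against the control group, where 8.68% of all genes were higher and 10.2% lower, 2 were higher, the receptor chaperone Hsp90aa1 (1.13, standard error 0.46) and its partner Fkbp4 (0.91, standard error 0.32), and 1 was lower, the glucocorticoid receptor gene Nr3c1 (-0.87, standard error 0.38). The unadjusted p of Nr3c1 was under 0.05 in 8 of the 24 alternatives, with values of -1.22 to -0.37, against 22 for Fkbp4 and 18 for Hsp90aa1. Fkbp4 was also 0.90 higher in the model group than in the control group. Hsp90ab1 was the most abundant, at 193 to 339 FPKM. In the DXM group 3 of the 8 lay wholly below the model group and 0 wholly above, beside 22.6% of all genes without overlap. The adrenal steroid synthesis genes Cyp11a1 and Cyp11b1 were below the filter, the second at 0 in every library.

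Among 14 genes of kinase and ubiquitin control, 1 was lower in the DXM group than in the model group and 3 were lower than in the control group at an unadjusted p under 0.05, and 0 were higher in either. Of all genes 2.80% and 10.2% were lower. Without overlap, 6 of the 14 lay below the model group and 0 above, beside 22.6% of all genes. Sgk2, a relative of Sgk1, had 89.3, 158 and 94.3 CPM in control libraries, 78.9, 80.2 and 78.5 CPM in model libraries, 128, 71.8 and 36.0 CPM in Rhy libraries and 51.1, 46.4 and 18.5 CPM in the DXM group. All DXM values lay below all control and model values (log2 fold changes -1.56 and -1.03, standard error 0.45 for both, edgeR adjusted p 0.134 and 0.639), and the second was -1.03 with model 1 and model 2 summed. The unadjusted p of Sgk2 against the model group was under 0.05 in 17 of the 24 alternatives. Cnksr3, a scaffold that assembles Sgk1 with the channel, was lower than in the control group (-1.25, standard error 0.39), as was Usp2, a deubiquitinase of the channel (-0.49, standard error 0.19), with 0.07 for Usp2 under the epithelial scaling. Model over control gave -1.16 and -0.51 for Cnksr3 and Usp2, and DXM over model -0.09 and 0.02. With DESeq2, Sgk2 and Cnksr3 passed against the control group, at adjusted p-values of 0.0155 and 0.0296, where the highest over the 24 alternatives was 0.502 and 0.507. DESeq2 called 1173 genes in all in that comparison. Ywhae, a 14-3-3 protein gene, was the most abundant at 104 to 155 FPKM.

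The channel is also cut open by proteases. Of 7 genes for these and their inhibitors, 0 passed in the DXM group against the model group and 5 were lower than in the control group at an unadjusted p under 0.05: the proteases St14 (-0.85, standard error 0.25), Furin (-0.66, standard error 0.24) and Tmprss4 (-0.55, standard error 0.24), and the inhibitors Spint1 (-1.05, standard error 0.30) and Spint2 (-0.83, standard error 0.31), the last the most abundant at 233 to 611 FPKM. Of all genes 18.9% passed there, 10.2% lower. In edgeR the adjusted p-values of the 5 lay between 0.134 and 0.244. With the epithelial scaling the values were -0.26 for St14, -0.12 for Furin, -0.02 for Tmprss4, -0.48 for Spint1 and -0.24 for Spint2. The unadjusted p of Tmprss4 was under 0.05 in 10 of the 24 alternatives. With DESeq2, St14, Spint1 and Spint2 passed, at adjusted p-values of 0.0132, 0.0160 and 0.0475, where the highest over the alternatives was 0.502, 0.502 and 0.522. DESeq2 called 1173 genes in all there. Model over control gave -0.98 for Spint1 (standard error 0.30). The median log2 fold change of the 7 against the control group was -0.66, and 8 of 8 epithelial markers were also below 0 there, as given above. Without overlap, 3 of the 7 lay below the model group and 0 above, beside 22.6% of all genes.

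Of the genes for sodium and partner ion transport, 13 are given. In the DXM group against the model group 2 were higher at an unadjusted p under 0.05 and 0 were lower, and against the control group 2 were higher and 4 lower, beside 7.69% and 18.9% of all genes that passed in either direction. Of all 14 on the list, 3 lay wholly above and 4 wholly below the model group, beside 22.6% of all genes without overlap. Kcne3, a potassium channel subunit, was at 70.5, 68.3 and 63.6 CPM in model libraries and 66.9, 159 and 212 CPM in the DXM group (1.11, standard error 0.37, and 1.13 with model 1 and model 2 summed), with 1.52 against the control group (standard error 0.38). Slc26a3, the chloride and bicarbonate exchanger, which is also 1 of the 6 surface markers, was higher than in the model group by 0.97 (standard error 0.44, and 1.06 with model 1 and model 2 summed). It gave -0.10 against the control group, and model over control -1.07. The unadjusted p of Slc26a3 against the model group was under 0.05 in 15 of the 24 alternatives. The sodium and proton exchanger genes Slc9a3 and Slc9a2 and their scaffold Slc9a3r1 were lower than in the control group (-2.07, -1.71 and -1.49, standard errors 0.89, 0.42 and 0.36). Model over control gave -0.78, -1.13 and -1.10 for them. Slc9a3 was at 63.4, 312 and 27.5 CPM in DXM 1, 2 and 3, so that the library lowest in Scnn1g within the group was the highest in Slc9a3, and without DXM 2 its log2 fold change was -3.63. In Rhy 3, the library highest in Scnn1g outside the DXM group, Slc9a3 was at 31.7 CPM, against 275 to 782 CPM in the other 8 libraries. Atp1b3, a beta subunit gene of the sodium pump, was higher than in the control group (0.64, standard error 0.16), with 0.40 for model over control. The potassium channel gene Kcnk5 was lower than in the control group (-0.95, standard error 0.35). None of these had an adjusted p under 0.05 in edgeR with TMM. With the epithelial scaling in edgeR, Atp1b3, Kcne3 and Slc9a3r1 passed against the control group, at 0.0311, 0.0311 and 0.0479, where 2195 genes passed in all. With DESeq2, Slc9a2, Slc9a3r1, Kcne3 and Atp1b3 passed against the control group, at adjusted p-values of 0.00447, 0.00417, 0.00878 and 0.00878, where the highest over the 24 alternatives was 0.502 for each. DESeq2 called 1173 genes in all in that comparison.

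**Figure D5:**
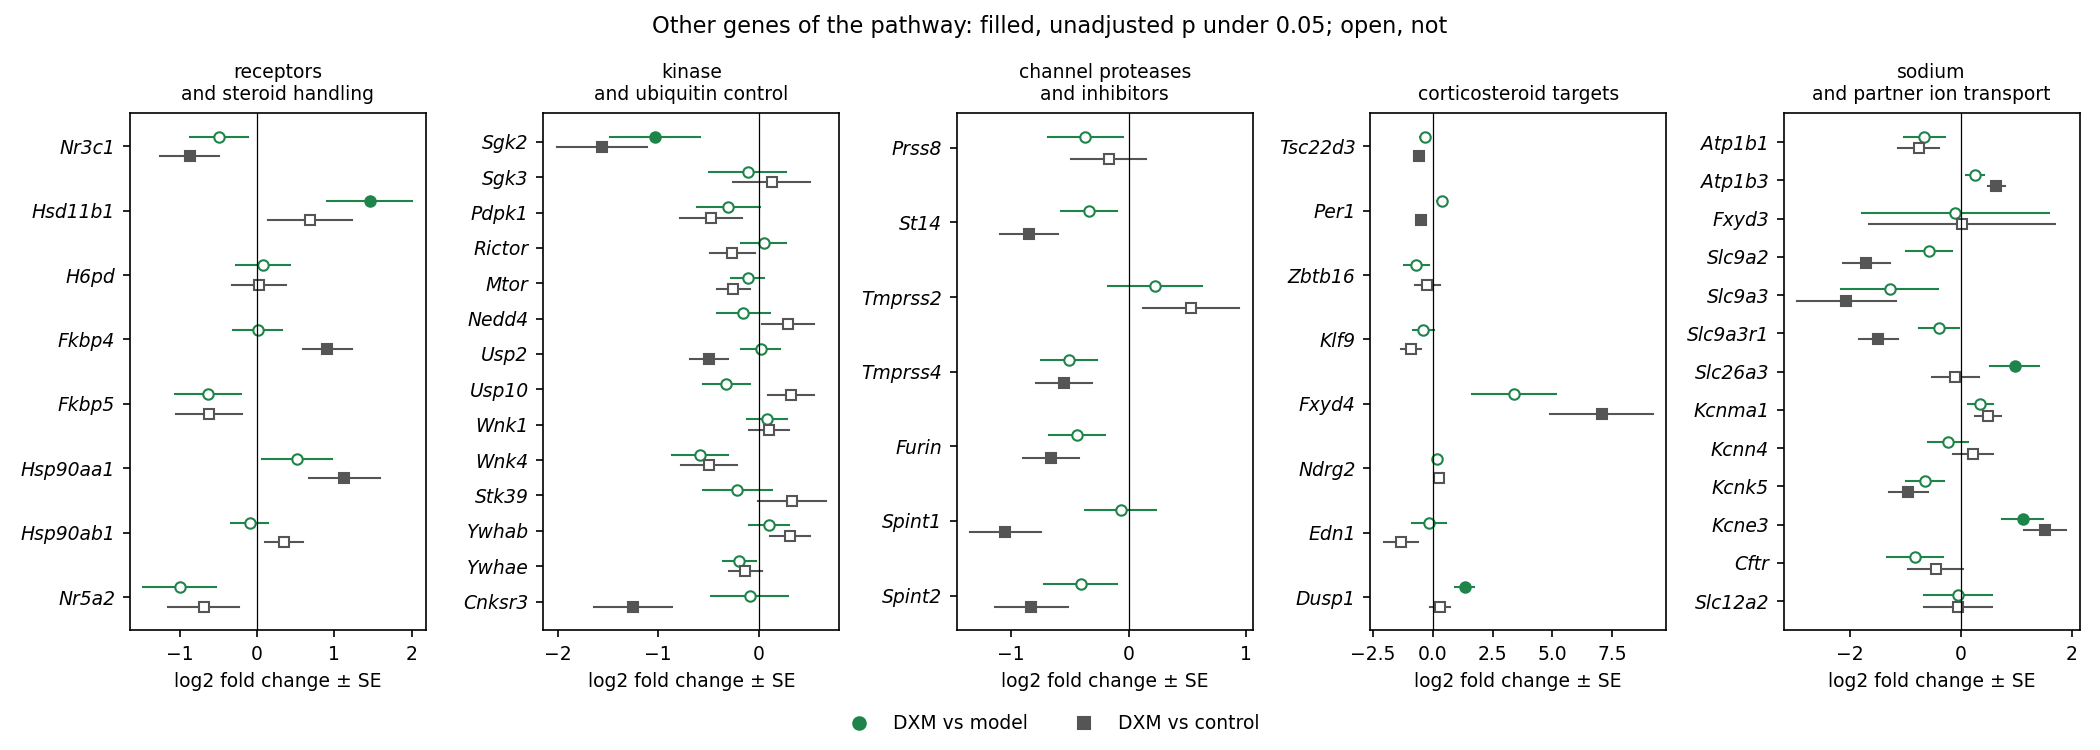
Log2 fold changes with standard errors (horizontal axes) of 50 tested genes in 5 lists (rows), for the DXM group against the model group (circles) and against the control group (squares), from the edgeR fit. Filled symbols have an unadjusted p under 0.05, none has an adjusted p under 0.05, and Fxyd4 lies farthest from 0, at 7.06 against the control group.

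The genes whose pattern was most like the mean standardized log2 CPM of Scnn1b and Scnn1g over the 12 libraries were Telo2, Nhsl2, Plekho2, Gpnmb, Selenon, P3h1, Pkn3 and Dchs1, with Pearson r from 0.934 to 0.911. Over 11 values, with model 1 and model 2 averaged, r was 0.937 for Telo2 and 0.912 for Dchs1, and over the 9 libraries with Hoxb13 at 5 CPM or more it was 0.931 for Gpnmb and 0.843 for P3h1, the highest and the lowest of the 8. These are the extremes of 16904 genes and describe these libraries only. For Scnn1a the most alike were 2010109I03Rik and Slc6a8 (r 0.930 and 0.912), for Nr3c2 Fam83b, Erbin and Ndfip2 (0.965, 0.964 and 0.962), and for Hsd11b2 Bhlha15, AI467606 and C630043F03Rik (0.890, 0.877 and 0.877). Those for Sgk1 were Smarca2, Fbxo38 and Snrk (0.935, 0.906 and 0.905) and for Nedd4l Mroh1, Wwp2 and Inpp5k (0.969, 0.968 and 0.966). Ndfip2, listed for Nr3c2, is an adaptor of Nedd4-family ligases, and Wwp2, listed for Nedd4l, is a ligase of that family. These too are extremes of 16904 genes, and a link between the listed genes was not tested.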

How the data were processed

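RNA was sequenced from mouse colonic tissue in 12 libraries. The authors deposited whole-number read counts per gene without normalization. They also deposited FPKM values, and 100% of the 262985 FPKM values above 0 equal the count over gene length and a scaled library size to within 0.1% or 0.001 FPKM. The submitters' processing notes name HISAT2 2.0.5, featureCounts 1.5.0-p3, DESeq2 1.16.1 and the build mm10. The coordinates listed for 6 of the 7 members are those of GENCODE M21, and Nedd4l differs. Both tables had 0 columns without a sample. DXM libraries are known from their labels, since the RNA-Seq methods list only control, model and Rhy.

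Genes were kept by edgeR's filterByExpr (minimum count 10), which left 16904. Tests used edgeR 4.0.16 under R 4.3.3 (TMM, estimateDisp, glmQLFit and glmQLFTest, two-sided, group means, all 12 libraries in 1 fit) and Benjamini-Hochberg adjustment within each of 5 comparisons. This test was checked on simulated counts of independent libraries. Standard errors are the log2 fold change over the square root of F. Log2 CPM carries a prior count of 2. P-values measure the spread between these libraries, which the labels describe as separate samples. Counting limits at 0 counts use 3 counts. Alternatives were RLE, upper-quartile and epithelial-marker scaling, no filter beyond 1 count, a fit to each pair of groups alone, a replicate block, DESeq2 1.42.0, limma 3.58.1 on log2(FPKM + 1) and log2(FPKM + 0.1), model 1 and model 2 summed, Hoxb13 as a covariate and each library left out; the fit to 9 libraries by Hoxb13 was added after seeing the data. Promoter windows were searched in Python. The members and lists were chosen with earlier results of these data known. Named genes are the members, list genes with an unadjusted p under 0.05 in the DXM group against the model or control group, the most abundant gene of each list by FPKM, and the 8 or 3 genes most like a member, except 1 ion transport gene and 1 gene most like Scnn1a, which are left out. Klf9, Fkbp5 and Nr5a2 are named because their DXM libraries lay wholly below the model group. Marker lists were colon epithelium (Epcam, Cdh1, Krt8, Krt18, Krt19, Vil1, Cdx2, Cldn7), surface colonocytes (Krt20, Car1, Car4, Aqp8, Slc26a3, Guca2a), posterior Hox (Hoxa13, Hoxb13, Hoxd10, Hoxd11, Hoxd12, Hoxd13), smooth muscle (Acta2, Myh11, Tagln, Des, Cnn1, Actg2), fat (Adipoq, Plin1, Cidec, Fabp4), immune cells (Ptprc, Cd3e, Cd79a, Lyz2), pancreatic acinar cells (Cpa1, Cel, Pnlip, Cela2a), endothelium (Pecam1, Cdh5, Kdr) and kidney tubule (Umod, Slc12a1, Slc12a3, Aqp2).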

Additional observations from a re-analysis of the deposited data

How the results depend on the processing

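Each of the 35 log2 fold changes of the 7 genes was recomputed under 24 alternatives, and 803 of the 840 values kept their direction. For Scnn1g and Scnn1b in the DXM group against the model, control and Rhy groups, all 24 did, and their ranges for Scnn1g were 1.98 to 4.54, 2.24 to 6.20 and 1.54 to 4.17. Over the 7 genes and the genes named from the lists, 19 values passed an adjusted p of 0.05 where the reported value did not. All were for DXM over control: 11 with DESeq2, 7 with the epithelial scaling and 1 with all genes of any count. Those settings called 1173, 2195 and 13 genes in all in that comparison. The cause was not tested for any change of direction or count given here. The fit to the 9 libraries with Hoxb13 at 5 CPM or more was added after seeing the data, and its model group is only the near-identical model 1 and model 2, counted as 2 libraries.

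With libraries scaled to the epithelial markers the log2 fold changes that turned were, for DXM over model, Sgk1 (0.04), Nr3c2 (0.19) and Nedd4l (0.17); for DXM over control, Hsd11b2 (0.44), Usp2 (0.07), Per1 (0.12) and Tsc22d3 (0); for DXM over Rhy, Scnn1a (0.03), Sgk1 (0.02), Nr3c2 (0.23) and Hsd11b2 (0.39); and for Rhy over model, Scnn1b (-0.01) and Nr3c2 (-0.04). With Hoxb13 as a covariate they were Nr3c2 for DXM over model (0), Nedd4l for DXM over Rhy (-0.08) and Scnn1b for model over control (-0.32). With model 1 and model 2 summed they were Hsd11b2 for DXM over model (-0.02) and Scnn1b for model over control (-0.09). Scnn1b also turned for model over control with RLE (-0.04) and DESeq2 (-0.03), and for Rhy over model with limma on log2(FPKM + 1) (-0.05) and log2(FPKM + 0.1) (-0.42). Sgk1 turned for model over control in the 9 libraries (0.12).

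Leaving out 1 library at a time gave, for DXM over model, Hsd11b2 -0.03 to 0.42, Nedd4l -0.32 to 0.03, Nr3c2 -0.36 to 0.09 and Sgk1 -0.50 to 0.00. For DXM over Rhy it gave Hsd11b2 -0.26 to 0.01, Nedd4l -0.18 to 0.16 and Scnn1a -0.86 to 0.17. For Rhy over model it gave Nedd4l -0.24 to 0.04, Nr3c2 -0.01 to 0.27, Scnn1b -0.92 to 0.70 and Scnn1g -0.19 to 1.70, and for model over control Scnn1b -0.43 to 0.55.

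In edgeR, 0 genes had an adjusted p under 0.05 in each comparison, with 1300, 3189, 848, 628 and 1626 at an unadjusted p under 0.05 for DXM over model, DXM over control, DXM over Rhy, Rhy over model and model over control. DESeq2 called 54, 1173, 9, 7 and 65. For DXM over model limma on log2(FPKM + 0.1), the 9 libraries and the fit to these groups alone each called 2 genes. For DXM over control 13 were called with all genes of any count and 2195 with the epithelial scaling. For Rhy over model limma on log2(FPKM + 0.1) called 2, and for model over control the unfiltered genes and the fit to these groups alone each called 1. Leaving out 1 library gave 0 to 4 for DXM over control (4 without DXM 1, and 1 without each of DXM 3, Rhy 1 and Rhy 3), 0 to 1 for Rhy over model (1 without model 3) and 0 to 1 for model over control (1 without each of model 3 and DXM 3).

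The unadjusted count for DXM over model was 736 with model 1 and model 2 summed, 2514 in a fit to these groups alone and 2175 with the epithelial scaling. For DXM over control it was 6209 with that scaling. For DXM over Rhy it was 1320 with all genes of any count and 4044 with that scaling. For Rhy over model it was 972 with all genes of any count, 944 with the Hoxb13 covariate, 283 with model 1 and model 2 summed and 1453 in the 9 libraries. For model over control it was 866 with model 1 and model 2 summed and 2686 in the 9 libraries. Leaving out 1 library gave 537 (without DXM 3) to 1834 (without control 1) for DXM over model, 1639 (without DXM 3) to 4075 (without control 1) for DXM over control and 372 (without DXM 3) to 1328 (without Rhy 3) for DXM over Rhy. It gave 289 (without model 1) to 1066 (without Rhy 1) for Rhy over model and 888 (without model 1) to 2811 (without control 3) for model over control.

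The replicate block, which pairs libraries of the same number, gave unadjusted counts of 1244, 3199, 773, 626 and 1820 and adjusted counts of 0 in edgeR for the 5 comparisons. Between libraries of the same number r was -0.31 to 0.363 over 18 pairs. In simulated counts with 200 genes changed 4-fold, edgeR recovered 123 with 6 false calls. The simulated libraries were independent, without a near-identical pair or differences in tissue make-up. These figures therefore do not measure recovery or false calls in the real libraries. Scnn1g had 18 counts in all over the control group.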
